A study of Mus musculus with 2 samples.

Results

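Sterol synthesis and fatty acid metabolism were followed through 34 genes in epithelial cells of mouse small intestinal organoids. The genes were chosen by name for their known roles, with earlier results of these data known. All 34 were found among the 37172 genes of the expression table. They were 13 enzymes of cholesterol synthesis, 6 enzymes of fatty acid synthesis, 10 enzymes of mitochondrial or peroxisomal fatty acid oxidation, and 5 regulators. Organoids are clusters of epithelium grown from crypts, here from the proximal small intestine of C57BL/6 wild-type mice. Crypts embedded in Matrigel, a basement membrane extract, received medium with EGF at 50 ng/mL, Noggin at 100 ng/mL and R-spondin1 at 400 ng/mL. Crypts embedded in type I collagen received that medium plus 100 ng/mL Wnt3a, 10 mM nicotinamide and 1% bovine serum albumin. Matrix, medium and the release of the cells (collagenase at 0.5 mg/mL for collagen, a recovery solution for Matrigel) differed together and cannot be told apart. Cells were taken on day 4, tagged by culture through an EpCAM antibody, pooled and sequenced as 1 single-cell library. The labels give neither the age nor the number of the mice.

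Cholesterol is built from acetyl-CoA through mevalonate, isoprenoids, squalene and lanosterol, and most enzymes of this route are transcribed under SREBP-2, the product of Srebf2. SREBP proteins stay in the endoplasmic reticulum while INSIG proteins hold their escort SCAP there, and INSIG1 is itself known as a transcriptional target of SREBPs. Fatty acids are made in the cytosol under SREBP-1 and are burned in mitochondria and peroxisomes, where many enzymes are known targets of the PPAR nuclear receptors. In the small intestine, enterocytes use these routes to absorb, store and oxidise dietary fat.

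There were 336 collagen and 1599 Matrigel cells after filtering. They held 42540314 and 285201649 counts, with medians of 124619 and 179044 counts per cell. With 1 cell suspension for each culture, the differences below have no replicates behind them and were not tested. Epcam stood at 1458 CPM in collagen cells and 1076 CPM in Matrigel cells, and the summed levels of 6 fibroblast and 6 immune markers were between 1.03 and 1.41 CPM in both. CPM is a summed count scaled to 1000000 per culture. The cultures differed in cell state: 10 crypt stem cell markers summed to 495 CPM in collagen and 3158 CPM in Matrigel cells, and 10 fetal or regenerative markers to 7202 and 221 CPM. Much of these sums came from Olfm4 (31.2 and 1637 CPM) and S100a6 (5705 and 169 CPM). Prom1, on the stem list, was higher in collagen cells, at 184 against 89 CPM. The part of these states in the lipid gene differences was not tested beyond the cluster levels given below.

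To show the regulatory sequence around the genes the results turn on, 250 bases before the annotated transcript start are printed for 4 genes. Hmgcs1 carries both motifs that were found, Mvd and Sc5d are the sterol enzymes with the largest ratios toward collagen, and Insig1 is the regulator with a ratio in the other direction. Sequences are from RefSeq on the GRCm38.p6 build, 5′ to 3′ on the gene's own strand. Capitals mark a CCAAT box (CCAAT, or ATTGG on the other strand) or the sterol regulatory element TCACNCCAC, which is bound by SREBPs.
Hmgcs1, chr13:119690101-119690350, plus strand: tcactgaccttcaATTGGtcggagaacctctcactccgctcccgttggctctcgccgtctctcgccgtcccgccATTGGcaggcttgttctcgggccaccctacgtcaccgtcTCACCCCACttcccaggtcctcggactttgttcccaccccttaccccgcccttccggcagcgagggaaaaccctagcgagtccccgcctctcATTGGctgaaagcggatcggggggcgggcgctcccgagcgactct
Mvd, chr8:122443423-122443672, minus strand: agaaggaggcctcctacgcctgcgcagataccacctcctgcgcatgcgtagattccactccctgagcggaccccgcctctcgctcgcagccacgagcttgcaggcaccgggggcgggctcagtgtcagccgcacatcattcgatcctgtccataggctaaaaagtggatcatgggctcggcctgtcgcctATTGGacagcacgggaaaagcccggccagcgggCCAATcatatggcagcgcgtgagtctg
Sc5d, chr9:42264301-42264550, minus strand: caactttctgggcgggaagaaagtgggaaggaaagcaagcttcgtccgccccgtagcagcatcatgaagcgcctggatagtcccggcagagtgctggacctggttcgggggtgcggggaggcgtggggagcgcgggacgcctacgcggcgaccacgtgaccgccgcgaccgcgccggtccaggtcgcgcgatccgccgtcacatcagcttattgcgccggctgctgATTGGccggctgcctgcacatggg
Insig1, chr5:28071162-28071411, plus strand: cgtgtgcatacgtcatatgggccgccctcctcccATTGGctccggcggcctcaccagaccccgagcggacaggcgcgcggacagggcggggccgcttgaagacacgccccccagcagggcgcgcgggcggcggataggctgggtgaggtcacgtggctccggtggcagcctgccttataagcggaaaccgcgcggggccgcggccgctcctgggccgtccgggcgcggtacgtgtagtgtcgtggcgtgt

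Windows of 300 bases, 250 before and 50 after the start, were found for 28 of the 34 genes (33 windows, since Pmvk, Dhcr7 and Srebf1 have more than 1 start). Fdps, Fdft1, Sqle, Scd1, Scd2 and Acaa2 had no window. The CCAAT box, a motif bound by the NF-Y complex, was present in a window of each of the 10 sterol synthesis genes that had one (10 of their 13 windows, 76.9%). Of all 32851 windows of the same length, 37.4% held it. Among the other groups it was present in 2 of 4 fatty acid synthesis windows, 3 of 9 oxidation windows and 5 of 7 regulator windows. The sterol regulatory element was present in 2 of the 33 windows and in 1.24% of all windows. It began 137 bases before the start of Hmgcs1, as TCACCCCAC on the gene's strand, and 171 bases before the start of Ehhadh on the other strand. The palindromic E-box-type pattern TCANNTGA, which leaves 2 central bases free, was in none of the 33 windows and in 8.39% of all windows. A pattern this loose is not specific to SREBPs. These 3 motifs were searched on both strands, and no match of one overlapped a match of another, while 2 CCAAT matches of Fasn on opposite strands overlapped each other. A match describes the letters of the window and says nothing of binding in these cells.

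**Figure D1:**
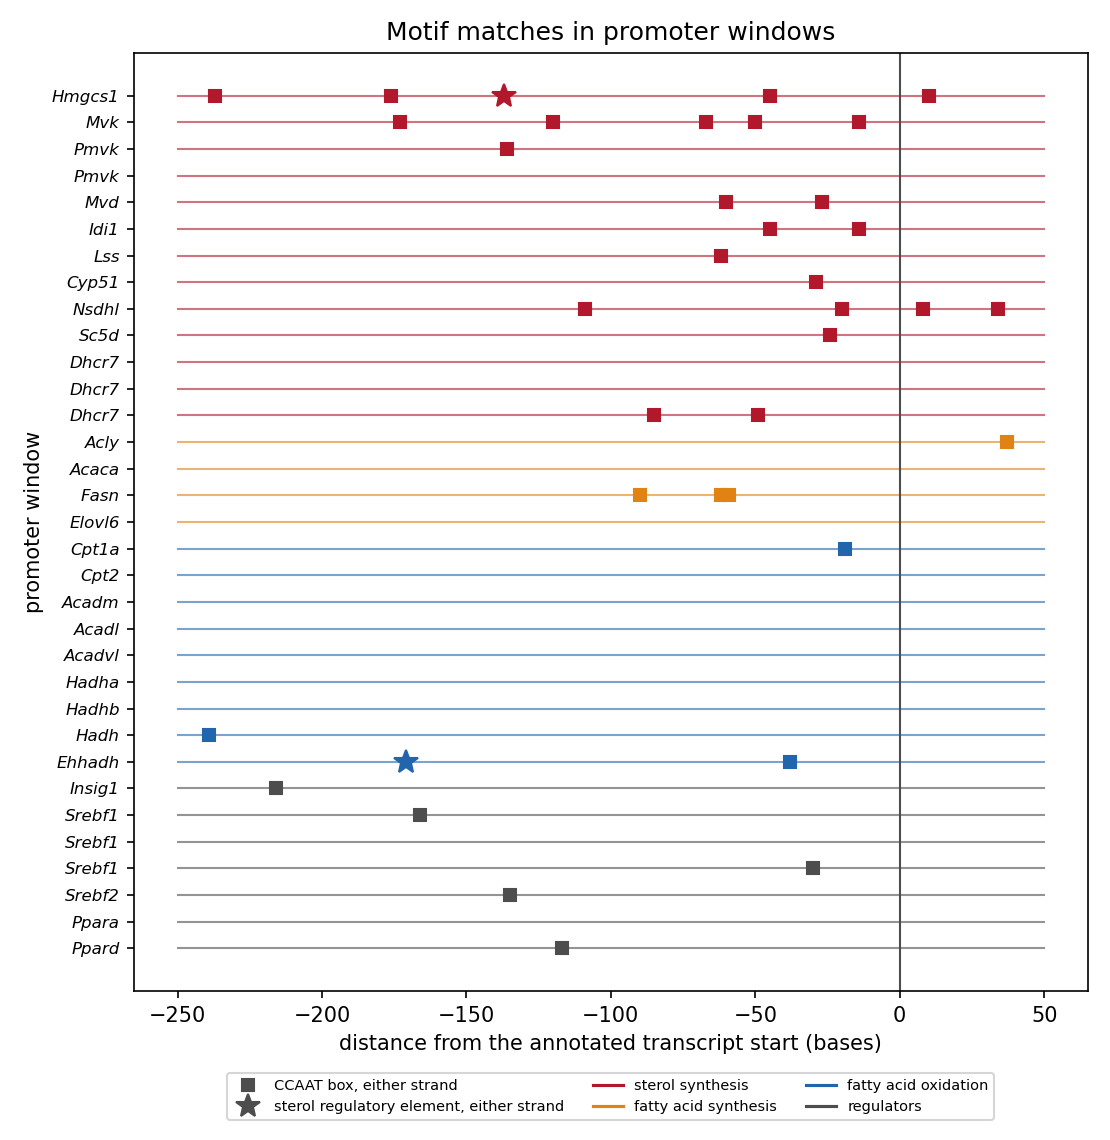
Positions of CCAAT boxes (squares) and sterol regulatory elements (stars) in the 33 promoter windows of 28 genes, as distance in bases from the annotated transcript start on the x axis, coloured by gene group. Squares lie on 10 of the 13 sterol synthesis windows and on 3 of the 9 fatty acid oxidation windows.

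The first comparison asked whether sterol synthesis enzymes differed between collagen and Matrigel cells. All 13 were higher in collagen cells, with log2 ratios (collagen over Matrigel, 1 CPM added) from 0.27 for Hmgcs1 to 1.14 for Sc5d and a median of 0.76. Of all 10593 genes reaching 5 CPM in either culture, 48.8% had a ratio above 0, and their median was -0.02. Sc5d and Mvd were at least 2-fold higher, a size that 8.21% of all measured genes reached. Over all 34 genes, 31 had a ratio above 0 and 4 were at least 2-fold higher, so that the shared direction stood further from the background than the count past 2-fold did. Because the genes were chosen with earlier results of these data known, these counts describe the list and are no test of it. The 13 genes summed to 2352 CPM in collagen and 1413 CPM in Matrigel cells, a ratio of 1.66 (1.65 to 1.68). Bracketed ranges are exact 95% counting intervals, which leave out the spread between cells and between cultures and are too narrow if PCR copies were counted.

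The genes are taken in pathway order. Hmgcs1, which makes HMG-CoA, stood at 214 CPM (209 to 218) in collagen and 177 CPM (175 to 178) in Matrigel cells. Mvk, mevalonate kinase, stood at 42.5 CPM (40.5 to 44.5) and 33.9 CPM (33.2 to 34.6). These early steps had small ratios, of 0.27 and 0.32. The 2 steps that follow had larger ones. Pmvk, phosphomevalonate kinase, stood at 166 CPM (162 to 170) against 84.9 CPM (83.8 to 86), a log2 ratio of 0.96. Mvd, which decarboxylates mevalonate diphosphate, stood at 162 CPM (158 to 166) against 78.7 CPM (77.7 to 79.8), a ratio of 1.03. Idi1 and Fdps, which turn the resulting isoprenoid into farnesyl diphosphate, stood at 415 against 269 CPM and at 220 against 138 CPM, with ratios of 0.63 and 0.66.

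Ratios of the enzymes committed to sterols ran from 0.32 for Dhcr7 to 1.14 for Sc5d. Fdft1, squalene synthase, stood at 289 CPM (284 to 294) in collagen and 170 CPM (169 to 172) in Matrigel cells, a ratio of 0.76. Sqle, squalene epoxidase, stood at 152 CPM (149 to 156) against 92.3 CPM (91.1 to 93.4), and Lss, which closes lanosterol, at 79.5 CPM (76.9 to 82.3) against 45.6 CPM (44.9 to 46.4). Their ratios were 0.72 and 0.79. Cyp51, which removes a methyl group of lanosterol, stood at 286 CPM (281 to 291) against 151 CPM (150 to 153). Nsdhl, which acts in a later demethylation, stood at 150 CPM (147 to 154) against 80.4 CPM (79.4 to 81.5). Sc5d, the C5 desaturase, stood at 138 CPM (135 to 142) against 62.1 CPM (61.2 to 63), a ratio of 1.14. The last enzyme of the route, Dhcr7, differed least among the late steps, at 37.1 CPM (35.3 to 38.9) against 29.6 CPM (29 to 30.2), a ratio of 0.32. Along the route the smallest ratios were thus at Hmgcs1, Mvk and Dhcr7, near its start and at its end.

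For Idi1, Fdps and Fdft1, 85.7%, 68.9% and 65.5% of the values above 0 were fractional, as were 86.6% of those of Acadl and 47.4% of those of Hadhb. The sources used here do not state how reads matching several genes were divided, and the levels of these 5 genes are less certain. With values rounded down, no ratio of the 34 genes moved by more than 0.02, which cannot show how such reads were divided.

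**Figure D2:**
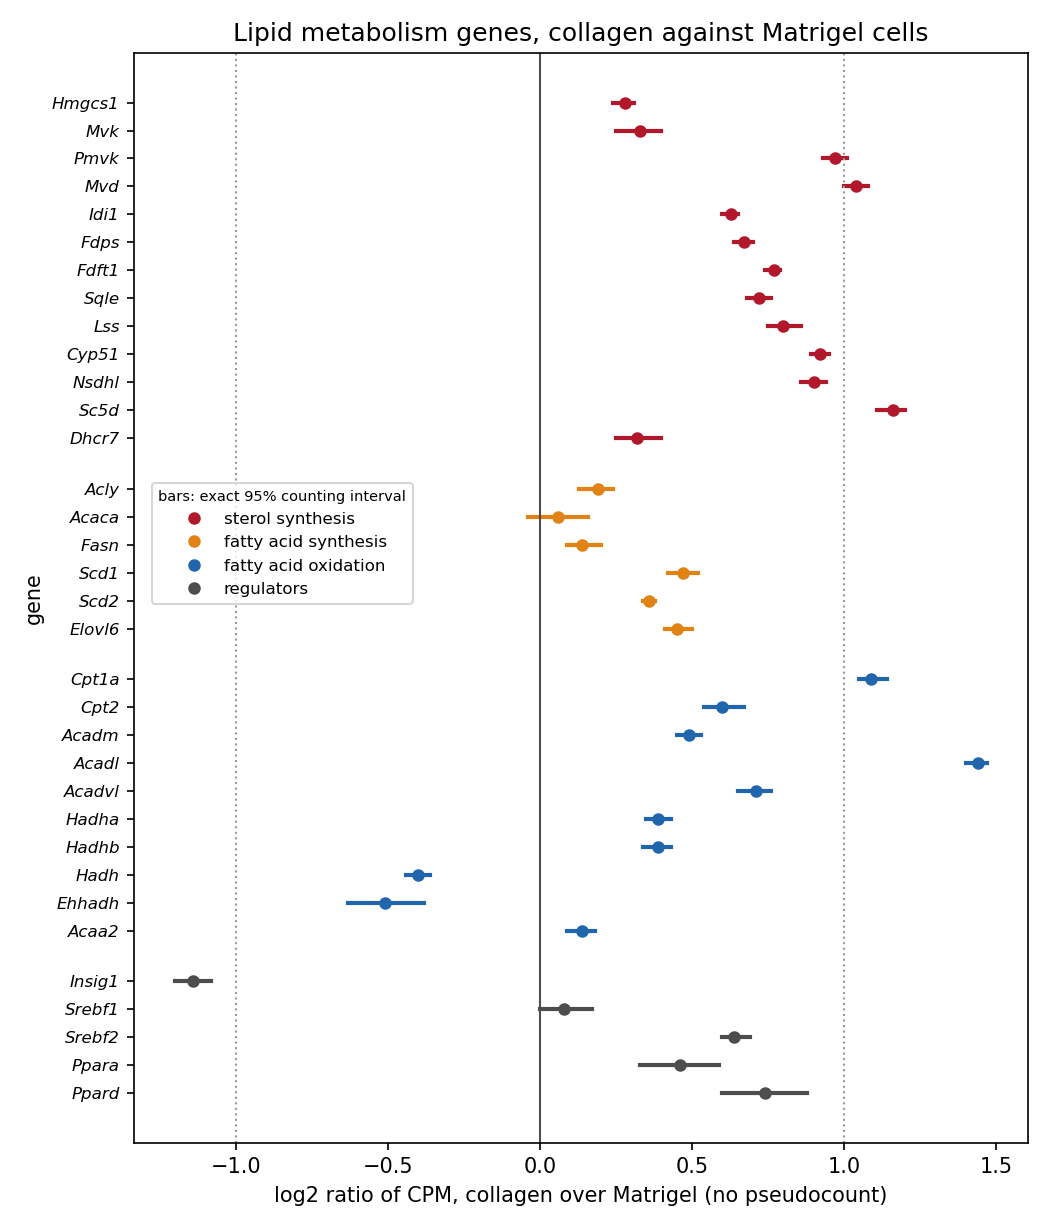
Log2 ratio of CPM in collagen over Matrigel cells, without an added CPM, for each of the 34 genes, grouped by role, with bars for the exact 95% counting interval and dotted lines at 2-fold. All 13 sterol synthesis genes lie to the right of 0, and Insig1 is the only gene left of the lower 2-fold line.

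The regulators of this route did not all share its direction. Insig1 was lower in collagen cells, at 51.9 CPM (49.7 to 54.1) against 114 CPM (113 to 116), a log2 ratio of -1.13. It was the only one of the 34 genes at least 2-fold lower, and 8.91% of all measured genes were. Its ratio was -0.96, short of 2-fold, when cells were assigned to cultures by a hashtag share of at least 60%, which added cells named doublet. Insig1 ranked at the 7.14 percentile of the log2 ratios of all measured genes, whereas the 13 sterol enzymes ranked between the 68.5 and the 93.6 percentile. Srebf2 stood at 115 CPM (112 to 118) in collagen and 73.7 CPM (72.7 to 74.7) in Matrigel cells, a ratio of 0.64. Srebf1, which encodes SREBP-1, stood at 31.3 CPM (29.7 to 33.1) in collagen and 29.6 CPM (28.9 to 30.2) in Matrigel cells, a ratio of 0.08 whose sign changed when each cell was given the same weight.

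A wider list of 24 cholesterol genes had 21 measured, of which 18 were above 0, with a median of 0.60, 5 past 2-fold toward collagen and 1 past 2-fold toward Matrigel. Over all measured genes, 48.8% were above 0, 8.21% passed 2-fold toward collagen and 8.91% toward Matrigel. Lipa, the lysosomal acid lipase that frees cholesterol from its esters, stood at 40.7 CPM (38.8 to 42.7) in collagen and 4.75 CPM (4.5 to 5.01) in Matrigel cells, a ratio of 2.86. Abcg5, a subunit of the sterol export transporter ABCG5/ABCG8, stood at 23.3 CPM (21.9 to 24.8) against 2.88 CPM (2.69 to 3.09). Ebp, a sterol isomerase of the synthesis route, stood at 155 CPM against 74 CPM. Insig2, the paralog of Insig1, had the opposite direction to it, at 26.6 CPM (25.1 to 28.2) against 12.6 CPM (12.2 to 13), a ratio of 1.02.

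Fatty acid synthesis differed less. All 6 enzymes had ratios above 0, from 0.06 to 0.46 with a median of 0.27, and none reached 2-fold. Over all measured genes, 48.8% had a ratio above 0 and 8.21% were at least 2-fold higher. Acly, which makes cytosolic acetyl-CoA from citrate, stood at 73.8 CPM (71.2 to 76.4) in collagen and 64.7 CPM (63.8 to 65.7) in Matrigel cells. Acaca, acetyl-CoA carboxylase, stood at 20.7 CPM (19.4 to 22.1) against 19.9 CPM (19.4 to 20.4), and the interval of its log2 ratio, -0.04 to 0.16, included 0. Fasn, fatty acid synthase, stood at 75.2 CPM (72.6 to 77.9) against 68 CPM (67.1 to 69). These genes, which build the saturated chain, had ratios of at most 0.19. Their median counts per cell at a common depth, given below, were the same in both cultures.

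The enzymes that modify the chain had somewhat larger ratios. The desaturase genes Scd1 and Scd2 stood at 99.2 against 71.7 CPM and at 501 against 391 CPM, with ratios of 0.46 and 0.36. Elovl6, an elongase, stood at 108 against 79.1 CPM, a ratio of 0.45. The 6 genes summed to 879 CPM in collagen and 695 CPM in Matrigel cells, a ratio of 1.26 (1.25 to 1.28).

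Of 18 measured genes of a wider list for fatty acid synthesis and activation, 11 were above 0, with a median of 0.25, 3 past 2-fold toward collagen and 1 past 2-fold toward Matrigel. The shares over all measured genes were 48.8%, 8.21% and 8.91%, here and for the triglyceride list below. Me1, the malic enzyme that supplies NADPH, stood at 55.5 CPM (53.2 to 57.7) in collagen and 9.51 CPM (9.16 to 9.88) in Matrigel cells, a ratio of 2.42. In the enterocyte-like Matrigel cluster described below, Me1 stood at 59 CPM. Of the Me1 values above 0, 29.6% were fractional. Acsl4 and Acsl5, which activate long-chain fatty acids, stood at 42.1 against 14.8 CPM and at 265 against 107 CPM. Fads1, a desaturase of polyunsaturated fatty acids, was lower in collagen cells, at 35.9 CPM (34.1 to 37.7) against 120 CPM (119 to 121), a ratio of -1.71. Fads2, the other desaturase of that route and picked out after its values were seen, stood at 145 against 272 CPM, a ratio of -0.90. Of 13 measured genes for triglycerides and lipid droplets, 10 were above 0, with a median of 0.70, 4 past 2-fold toward collagen and 1 past 2-fold toward Matrigel. They included Lpin1 (32.8 against 13.5 CPM), Mogat2 (25.9 against 10.9 CPM) and Agpat2 (68.2 against 30.5 CPM), which make diglycerides or their precursor. Gpam, which starts glycerolipid synthesis in mitochondria, was the gene in the other direction, at 11.9 against 28.9 CPM.

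Fatty acid oxidation genes varied in the size and direction of their ratios. Of its 10 enzymes 8 had ratios above 0, with a median of 0.43, and Cpt1a and Acadl passed 2-fold toward collagen. Among all measured genes, 48.8% were above 0 and 8.21% passed 2-fold toward collagen. Cpt1a, which commits fatty acids to mitochondria, stood at 109 CPM (106 to 112) in collagen and 50.9 CPM (50.1 to 51.8) in Matrigel cells, a ratio of 1.08. Cpt2, its partner at the inner membrane, stood at 55.3 CPM (53.1 to 57.6) against 36.4 CPM (35.7 to 37.1), a ratio of 0.59.

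Acadl, Acadvl and Acadm, acyl-CoA dehydrogenases that take the first step of each cycle, were all higher in collagen cells. Of other measured genes of this family, Acads (49.1 against 39.5 CPM) and Acadsb (38.6 against 25.4 CPM) were higher too. Acad9 was lower, at 10.6 against 14.2 CPM, with 65.9% of its values above 0 fractional. Acadl, for long chains, stood at 224 CPM (219 to 228) against 82.7 CPM (81.7 to 83.8), and its ratio of 1.43 was the largest of the 34 genes. Acadvl, for very long chains, stood at 87 CPM (84.2 to 89.8) against 53.3 CPM (52.5 to 54.2), and Acadm, for medium chains, at 144 CPM (140 to 147) against 103 CPM (102 to 104). Their ratios were 0.70 and 0.48.

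The rest of the 10 enzymes, which act at later steps or in peroxisomes, had ratios below those of Acadl, Acadvl and Acadm. Hadha and Hadhb, the subunits of the mitochondrial trifunctional protein, stood at 132 against 101 CPM and at 108 against 82.5 CPM, with ratios of 0.39 and 0.38. Acaa2, a thiolase, stood at 109 against 99.2 CPM, a ratio of 0.14. Hadh, the dehydrogenase for medium and short chains, was lower in collagen cells, at 124 CPM (121 to 127) against 163 CPM (162 to 165), a ratio of -0.39. Ehhadh, the peroxisomal bifunctional enzyme, was also lower, at 13.9 CPM (12.8 to 15.1) against 19.7 CPM (19.2 to 20.3), a ratio of -0.48. The 10 genes summed to 1106 CPM in collagen and 792 CPM in Matrigel cells, a ratio of 1.4 (1.38 to 1.41).

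The receptors stood at low levels in both cultures. Ppara was at 13.8 CPM (12.7 to 14.9) in collagen and 9.98 CPM (9.61 to 10.3) in Matrigel cells, and Ppard at 12.3 CPM (11.3 to 13.4) and 7.35 CPM (7.04 to 7.67), with ratios of 0.43 and 0.67. At the common depth used below, Ppara was counted in fewer collagen cells, 24.6% against 30.7% of Matrigel cells. Ppard was counted in 38.6% against 29.6%. Of 11 measured genes on a list of ketogenesis genes and PPAR targets, 8 were above 0, with a median of 0.53, 3 past 2-fold toward collagen and 1 past 2-fold toward Matrigel. The shares over all measured genes were 48.8%, 8.21% and 8.91%. Vnn1, which encodes a pantetheinase, stood at 14.1 CPM (13 to 15.3) in collagen and 1.21 CPM (1.09 to 1.35) in Matrigel cells, a ratio of 2.77. Genes of 2 fatty acid carriers went opposite ways. Fabp1 stood at 1110 against 449 CPM, a ratio of 1.30, and Fabp2 at 42.5 against 236 CPM, a ratio of -2.45.

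Among 21 other measured genes of fatty acid oxidation, 18 were above 0, with a median of 0.34, and 4 passed 2-fold toward collagen and none toward Matrigel. The shares over all measured genes were 48.8%, 8.21% and 8.91%. Slc25a20, which carries acylcarnitines into mitochondria between the Cpt1a and Cpt2 steps, stood at 70.4 CPM (67.9 to 72.9) in collagen and 30 CPM (29.4 to 30.7) in Matrigel cells, a ratio of 1.20. Acaa1b, a peroxisomal thiolase, stood at 10.7 against 1.93 CPM and Acot2, a thioesterase, at 12.9 against 5.52 CPM, and for these 92.6% and 69.1% of values above 0 were fractional.

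Differences between single cells were read at a common depth of 77972 counts per cell, reached by 264 collagen and 1477 Matrigel cells. The 13 sterol genes summed to a median of 174 counts per collagen cell (percentile 10 at 76.6, percentile 90 at 317) and 105 counts per Matrigel cell (60 and 164). Of the collagen cells, 78.8% lay above the Matrigel median, so the distributions overlapped widely. The coefficient of variation was 0.56 in collagen and 0.401 in Matrigel cells. Fatty acid oxidation genes had medians of 74.5 counts (42.3 and 157) and 57 counts (40 and 83), with 75.8% of collagen cells above the Matrigel median. Fatty acid synthesis genes had medians of 61 counts (21 and 129) and 51 counts (27 and 88), with 59.1% above.

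Single genes showed the ends of this range. Acadl had a median of 15 counts in collagen and 5 in Matrigel cells, and 84.5% of collagen cells lay above the Matrigel median. Insig1 had a median of 2 counts in collagen and 7 in Matrigel cells, and 15.2% of collagen cells lay above the Matrigel median. Lower Insig1 counts were thus seen across most collagen cells. Hmgcs1 had medians of 13 and 12 counts, and 50.4% of collagen cells lay above the Matrigel median, although its summed ratio was 0.42 in these cells. The highest collagen cell held 382 Hmgcs1 counts, against a percentile 90 of 35.7. Other genes with a summed ratio above 0 were not higher in the median collagen cell. Hadhb had medians of 5 counts in collagen and 6 in Matrigel cells, and Acaa2 of 6 and 7. For each, 45.1% of collagen cells lay above the Matrigel median. Mvk and Dhcr7 had medians of 2 counts in both cultures, with 45.8% and 44.3% of collagen cells above. Acly and Fasn had medians of 4 in both, each with 48.1% of collagen cells above. Acaca had medians of 1 in both and Srebf1 of 2, with 33% and 38.3% above. Ppara and Ppard had medians of 0 in both.

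**Figure D3:**
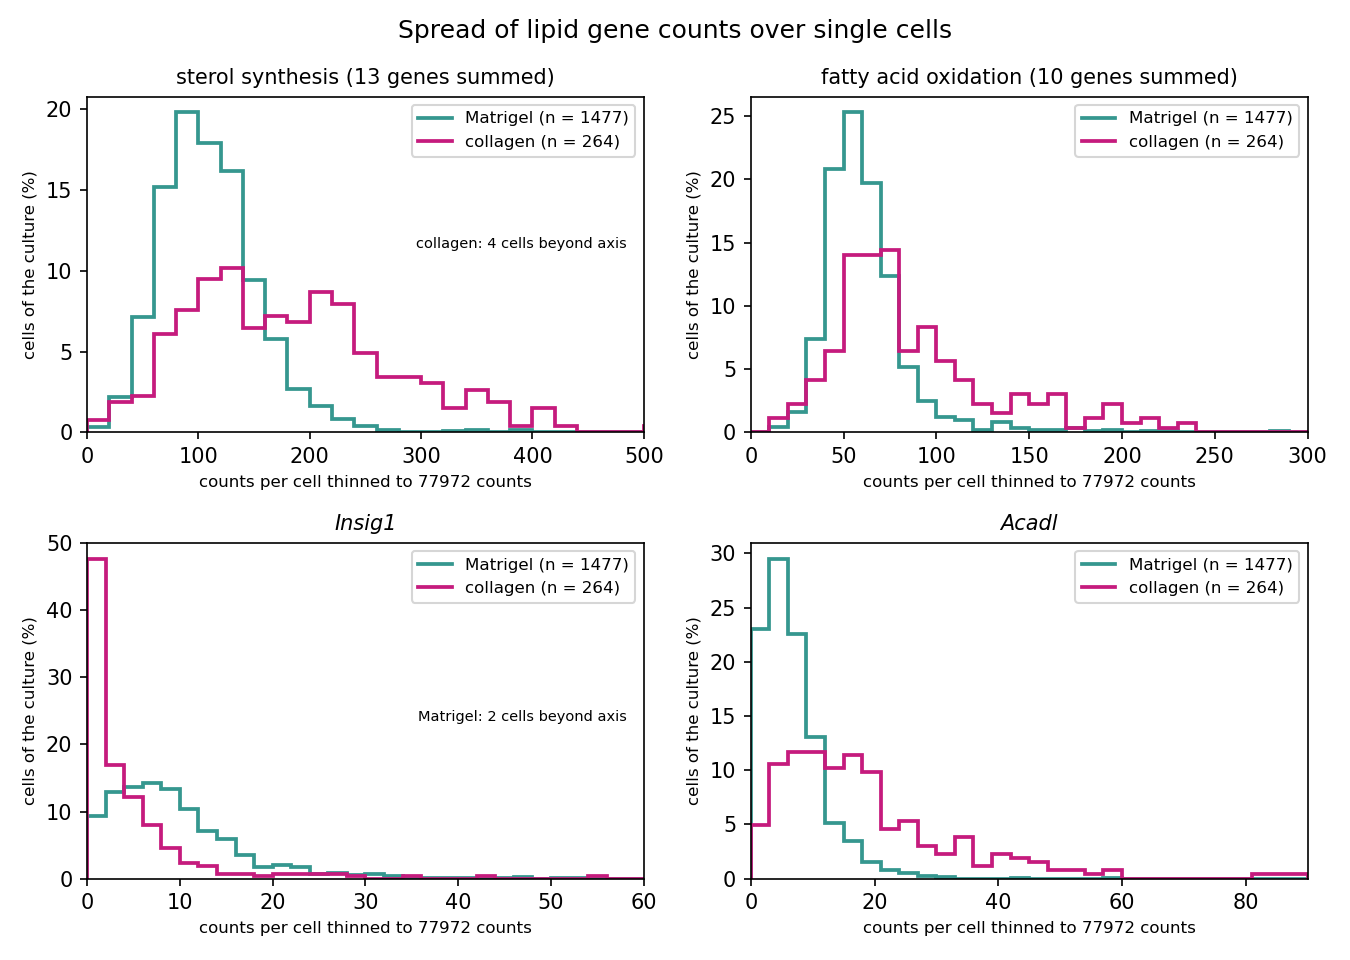
Share of cells of each culture (y axis, %) by counts per cell after thinning to 77972 counts (x axis) for the summed sterol synthesis genes, the summed fatty acid oxidation genes, Insig1 and Acadl, in 264 collagen and 1477 Matrigel cells. Collagen cells extend further to the right than Matrigel cells for the sterol sum (medians 174 and 105) and Acadl, and crowd near 0 for Insig1.

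Depth differed between the cultures, so levels were also compared in 3 bins of counts per cell. Sterol genes summed to 2308, 2361 and 2451 CPM in collagen cells from the shallowest to the deepest bin, and to 1318, 1405 and 1445 CPM in Matrigel cells. Insig1 stood at 47.7, 50.9 and 65.1 CPM against 115, 115 and 114 CPM. Within each bin the cultures differed in the same direction as over all cells, on 211, 97 and 28 collagen cells.

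How the groups varied together over cells is given as Spearman's rho within each culture, a description over cells of 1 library at 1 depth. The sterol and fatty acid synthesis sums had a rho of 0.70 over 264 collagen cells and 0.64 over 1477 Matrigel cells. The sterol and oxidation sums had a rho of 0.31 in collagen cells, 0.30 in the 241 of them that belonged to the largest collagen cluster, and -0.00 in Matrigel cells. Each sterol gene had a positive rho with the sum of the other 12, from 0.36 (Hmgcs1) to 0.77 (Fdps) in collagen cells and from 0.23 (Mvk) to 0.55 (Fdft1) in Matrigel cells. Insig1 had a positive rho with the sterol sum inside both cultures, 0.30 in collagen and 0.44 in Matrigel cells. Between the cultures, Insig1 and the sterol sum differed in opposite directions. Srebf2 had a rho with the sterol sum of 0.41 in collagen and 0.20 in Matrigel cells, and Srebf1 0.10 in both. Ppara had a rho with the oxidation sum of 0.45 in collagen and 0.19 in Matrigel cells, while for Ppard it was 0.00 and 0.04.

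Cells were then clustered without the 34 genes and without the wider lists, so that these genes did not set the clusters. Of the collagen cells, 275 fell in 1 cluster, led by Ly6a, Msln, Tm4sf4 and Muc3. Another 25 fell in a shallow one (median 45060 counts per cell), led by Ly6d, Sprr1a, Anxa10 and Cryab. The median mitochondrial share of these 25 cells was 3.07%, against 3.38% in the 275. The remaining collagen cells lay in clusters made up mostly of Matrigel cells. Matrigel cells formed 8 clusters of 60 to 319 cells. In the largest collagen cluster 14 of the 34 genes stood above all 8 Matrigel clusters, as did 17.7% of all measured genes. Of these 14, 11 were sterol enzymes, all but Hmgcs1 and Mvk, and the others were Acadl, Srebf2 and Ppard. Sc5d stood at 146 CPM in that cluster and between 43.8 and 114 CPM in the Matrigel clusters. Nsdhl stood at 152 CPM and between 58.2 and 90.6 CPM. For 3 of the 14 the counting interval overlapped that of the highest Matrigel cluster: Dhcr7 at 37.4 CPM (35.5 to 39.4) against 34.8 CPM (33 to 36.7), Srebf2 at 117 CPM (114 to 121) against 114 CPM (105 to 123), and Ppard at 12.3 CPM (11.2 to 13.5) against 12 CPM (10.1 to 14.3). None of the 6 fatty acid synthesis genes was outside the Matrigel range. Insig1 and Ehhadh stood below all 8 Matrigel clusters, as did 14.5% of all measured genes. Insig1 was at 49.2 CPM against 77.6 to 228 CPM, and Ehhadh at 13.5 CPM against 16.6 to 46.9 CPM.

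The shallow collagen cluster of 25 cells did not share all of this. Its sterol genes summed to 1552 CPM, within the 1079 to 1844 CPM of the Matrigel clusters, its fatty acid synthesis genes to 390 CPM, below the 530 to 881 CPM of those clusters, and its oxidation genes to 893 CPM. Sqle stood at 28.4 CPM (20.1 to 38.9) and Dhcr7 at 2.24 CPM (0.462 to 6.55), below every Matrigel cluster, and Mvd at 53.8 CPM (42.1 to 67.7), where the lowest Matrigel cluster had 56.2 CPM. Nsdhl stood at 210 CPM (186 to 236) and Acadl at 213 CPM (190 to 240), above every Matrigel cluster, although for Acadl the intervals overlapped. Insig1 was low here too, at 23.9 CPM (16.3 to 33.7). The parts of the low depth and of the state of these cells in their levels were not tested.

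Matrigel clusters differed among themselves most in fatty acid oxidation. An enterocyte-like cluster of 60 cells, led by Reg1, Sis and Rbp2, had a summed oxidation level of 1773 CPM, above the 1130 CPM of the largest collagen cluster and the 617 to 834 CPM of the other Matrigel clusters. In it Hadh stood at 351 CPM, Acaa2 at 240 CPM, Hadha at 219 CPM and Ehhadh at 46.9 CPM, the highest of any Matrigel cluster for each. Ppara stood at 37.8 CPM (34.4 to 41.6) and Fabp1 at 9146 CPM (9091 to 9201). The largest collagen cluster reached or passed this cluster only for Acadl among the 10 oxidation genes, at 232 CPM (227 to 237) against 204 CPM (196 to 213). Some named wider-list genes at least 2-fold higher in collagen cells were also high here. Besides Fabp1, Abcg5, Mogat2 and Acot2 stood at 41.2, 85.6 and 17.9 CPM, against 24.5, 28.1 and 13.4 CPM in the largest collagen cluster. Me1, Slc25a20 and Agpat2 were close, at 59, 70.9 and 68.9 CPM against 55.4, 73.3 and 72.5 CPM. The rest, among them Lipa (20.1 against 43.3 CPM), were lower in the enterocyte-like cluster. Sterol genes summed to 1844 CPM in the enterocyte-like cluster, to 1079 CPM in a cluster led by Edn1, Olfm4 and Gkn3 that also had Lgr5 among its leading genes, and to 2419 CPM in the largest collagen cluster. Insig1 stood at 228 CPM in the enterocyte-like cluster and 77.6 CPM in the cluster led by Edn1, which were its highest and lowest Matrigel levels. A Matrigel cluster of 99 shallow cells (median 44008 counts per cell, median mitochondrial share 19%) had 1178 CPM of sterol genes and the highest Acaca and Fasn, at 70.3 and 125 CPM. The part of depth and mitochondrial share in these values was not tested.

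**Figure D4:**
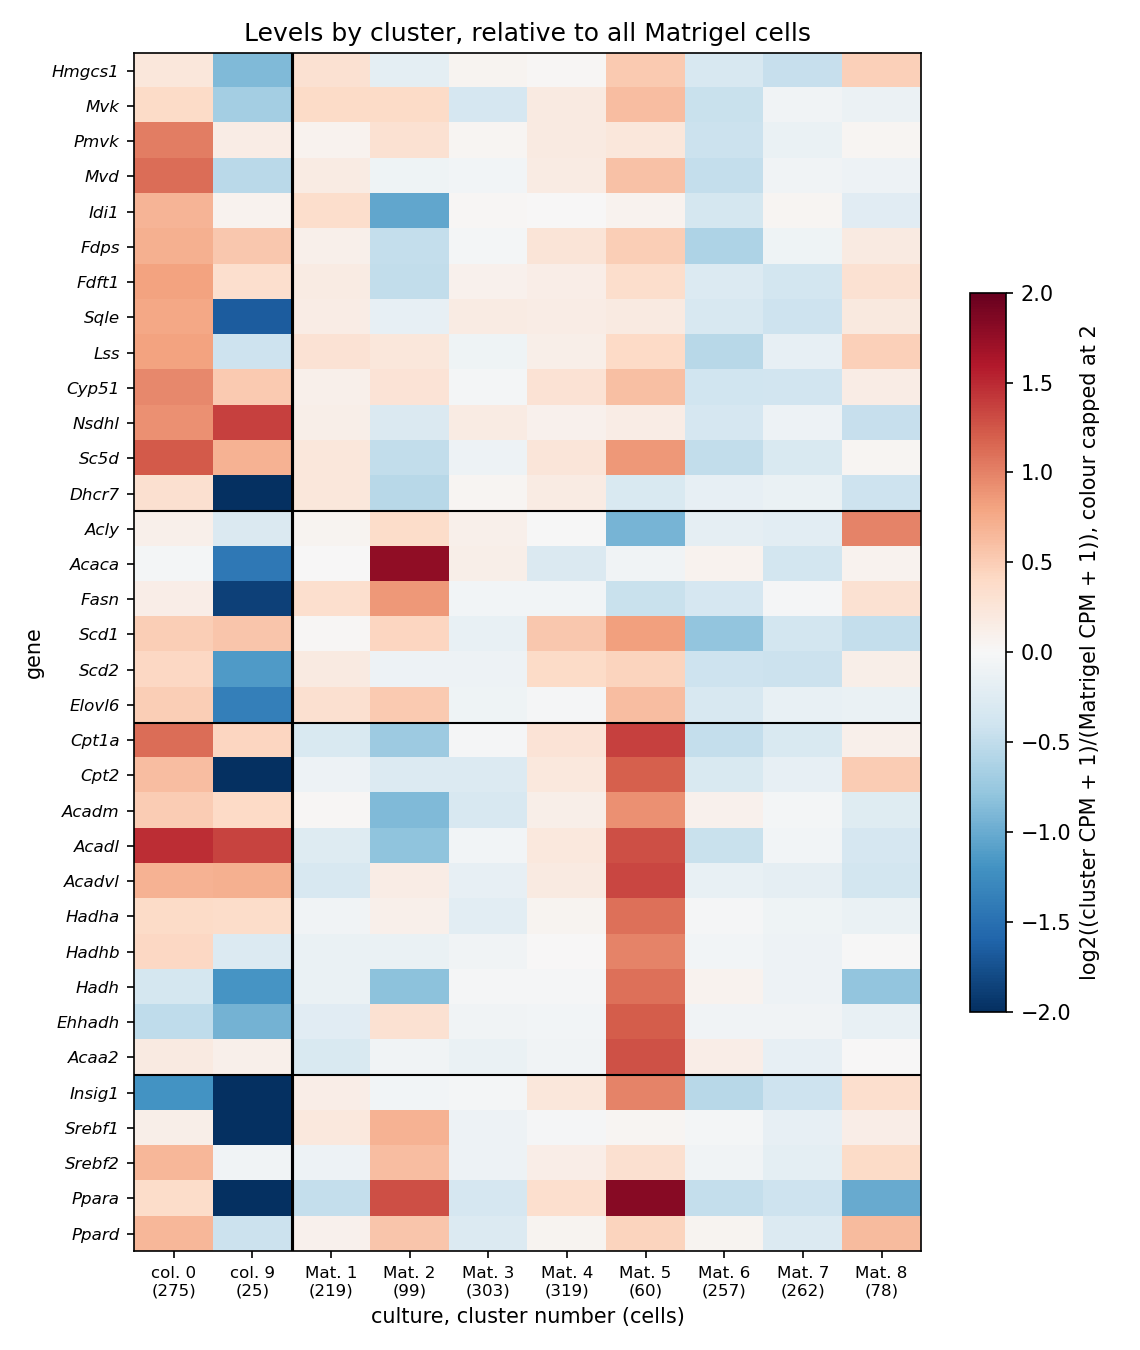
Level of each of the 34 genes in clusters with at least 20 cells of a culture, as log2 of cluster CPM over the CPM of all Matrigel cells with 1 CPM added to each, with colour capped at 2 in each direction. The largest collagen cluster (275 cells) is red for the sterol genes in the top block and blue for Insig1, and Matrigel cluster 5, the enterocyte-like one (60 cells), is red for all fatty acid oxidation genes.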

How the data were processed

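Cells of both cultures were captured on BD Rhapsody beads, amplified by TAS-Seq and sequenced on a NovaSeq, per the labels' protocols. Cutadapt 4.1, STARsolo 2.7.10a, R 4.2.1 and the GRCm39 build were used, per the submitters' processing notes, which give no roles. The authors deposited an expression table of expected counts, not scaled, for 37172 genes and 2090 cells (75.6% of values above 0 were whole), and a hashtag table of whole-number counts. The sources used here do not state whether copies of a molecule were collapsed. Another 9 hashtag columns were not used. Cell names carry the culture tag, and the 139 cells named doublet were left out of the comparisons. All 2090 barcodes are in the hashtag table.

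A minimum of 500 detected genes and a mitochondrial limit of 30% removed 16 Matrigel cells and no collagen cell. Counts were summed per culture, rounded for intervals, and scaled to CPM. Genes at 5 CPM or more in either culture counted as measured. Log2 ratios had 1 CPM added. Poisson and Clopper-Pearson intervals (scipy 1.17.1) cover counting error only. The calculation was tested on simulated data. Thinning to 77972 counts, the percentile 10, left out 72 collagen and 122 Matrigel cells. Clusters were made in scanpy 1.11.5 (Leiden, resolution 0.5, 2000 variable genes, 20 components, 15 neighbours) without 130 lipid genes. Promoter windows are of GRCm38.p6 and were used with no coordinate from the files.

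The genes and lists were chosen with earlier results of these data known. Every one of the 34 genes is named. Of each wider list, up to 4 genes reaching 10 CPM with the largest absolute ratio are named, and some that this rule picks are not reported here. Alternatives changed the pseudocount, the minimum level, the culture assignment, cell filters, depth, weighting, scaling, fractional values and clustering.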

Additional observations from a re-analysis of the deposited data

How the results depend on the processing

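Of the 34 log2 ratios, 34 were evaluated in 13 of 14 alternatives and 31 with a minimum of 20 CPM, which Ehhadh, Ppara and Ppard did not reach. Those evaluated had the same sign throughout, apart from Srebf1 with equal weight per cell and Acaca with the largest collagen cluster only, and the 13 sterol genes stayed above the median gene in each. The median ratio of the sterol genes, 0.76, became 0.73 when cells were assigned by a hashtag share of 60%, which brought in 49 and 54 cells named doublet, 0.79 at 95%, 0.80 with thinned cells and 0.80 with the largest collagen cluster only. The median of the oxidation genes, 0.43, became 0.48 with a minimum of 20 CPM, 0.48 at a hashtag share of 95%, 0.48 with thinned cells and 0.50 without the enterocyte-like cluster. With the share of 60% Insig1 was at -0.96, so that 0 genes were at least 2-fold lower. With the largest collagen cluster only, Pmvk passed 2-fold. A minimum of 20 CPM tested fewer genes and left 568 higher and 503 lower genes of 870 and 944. The alternatives that used clusters, and a mitochondrial limit of 10%, were chosen after seeing the data. The log2 spread between the highest and lowest cluster of a culture depended on the clustering. At resolution 1.0 it was 0.76 for oxidation in collagen cells (0.34 at 0.5) and 0.93 for fatty acid synthesis in Matrigel cells (0.73). With 1000 variable genes the Matrigel spreads were 0.54 for sterol genes (0.77), 0.52 for fatty acid synthesis (0.73) and 0.95 for oxidation (1.52), and collagen cells gave a single cluster and so no spread. The cause of these shifts was not tested. With 1 suspension per culture, depth is not the limit for most of the genes: the spread between cultures is unknown. No paired analysis was possible because the cultures carry no replicate numbers.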

Other observations

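At the finer clustering, of resolution 1.0, collagen cells split into clusters of 241, 40 and 25 cells. The cluster of 40 was led, against the other collagen cells, by Plat, Cldn4, Areg and F3, and its median depth of 123491 counts per cell was close to the 131201 of the cluster of 241. Sterol genes summed to 2446 CPM in the cluster of 241, 2299 CPM in the cluster of 40 and 1552 CPM in the cluster of 25, the shallow one already described. Fatty acid oxidation genes summed to 1193, 705 and 893 CPM and fatty acid synthesis genes to 940, 642 and 390 CPM. Ppara stood at 16.8 CPM (15.4 to 18.2) in the cluster of 241 and 0.653 CPM (0.132 to 1.87) in the cluster of 40, Hadh at 135 and 73.5 CPM, Cpt1a at 119 and 67.7 CPM, and Fabp1 at 1277 and 239 CPM. Insig1 stood at 52.5 and 36.6 CPM. These clusters were picked out after their values were seen, come from 1 suspension, and were not tested.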
